A study of Mus musculus with 11 samples.

Results

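RNA-Seq of mouse dorsal root ganglia (DRGs), where sensory neurons have their cell bodies, also reads the RNA of the blood cells that are in the tissue. The 10 genes described here mark blood cells of these kinds: the hemoglobin genes *Hba-a1*, *Hba-a2*, *Hbb-bs* and *Hbb-bt*, the red cell genes *Alas2* and *Slc4a1*, and the neutrophil genes *S100a8*, *S100a9*, *Ngp* and *Camp*. They were chosen by name for what they encode, but with earlier results of these data known. Each has 1 row among the 36670 genes of the deposited table. All 10 passed the filter of a mean of at least 0.5 FPKM (fragments scaled for transcript length and library size) that left 15087 genes for testing.

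The libraries came from 11 adult mice, 1 library of whole DRGs per mouse: 3 WT controls (WT_V), 3 WT mice collected 4 weeks after paclitaxel (WT_P), 3 *Gpr37l1* KO controls (KO_V) and 2 *Gpr37l1* KO mice collected 4 weeks after paclitaxel (KO_P). Paclitaxel (PTX) is given against cancer and can leave patients and mice with neuropathic pain. The KO strain is B6;129S5-Gpr37l1 tm1Lex/Mmucd, kept on a C57BL/6 background and targeted in the gene for an orphan receptor of satellite glial cells. The controls were labelled Control, and the study's text calls its WT controls naive. In each group replicate 3 is a female and the other libraries are from males, so being female and being number 3 cannot be told apart. The dose of PTX in the sequenced mice, and whether blood was flushed from the tissue, are not given in the sources used here.

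Counts per library summed to 52735648 to 75538569 in WT controls, 56308213 to 80348732 in WT PTX mice and 75645085 to 78700213 in KO controls. The KO PTX libraries had 54914928 and 56747335 counts, so both lie at the lower end. *Gpr37l1* was at 14.56 to 35.7 FPKM in the WT libraries and 0.21 to 1.15 FPKM in the KO libraries, which does not go against the genotype labels. The library of WT control 1 stands apart from the others by the gene CT010467, at 14835 FPKM against 902.89 to 2899 FPKM elsewhere. Values for comparisons with the WT controls are also given without it where they moved most. The labelled tissue was checked against markers of sensory neurons, of which all 12 were measured, with a summed level of 5517 to 6686 FPKM per library.

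Hemoglobin is made of alpha chains, encoded here by *Hba-a1* and *Hba-a2*, and beta chains, encoded by *Hbb-bs* and *Hbb-bt*, each carrying a heme group. *Alas2* encodes the erythroid form of the first enzyme of heme synthesis, and *Slc4a1* encodes band 3, the anion exchanger of the red cell membrane. Mature red cells have no nucleus, and the globin mRNA they hold was made before the nucleus was lost. Neutrophils carry *S100a8* and *S100a9*, the subunits of calprotectin, and the granule proteins *Ngp* and *Camp*, the last of which encodes the cathelicidin antimicrobial peptide. Granule protein genes are read mainly while neutrophils mature in the bone marrow, and *S100a8* and *S100a9* stay on in circulating cells. In bulk tissue, fewer cells of a type and less RNA per cell cannot be told apart, and these libraries do not show whether the cells were inside vessels.

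All positions are on GRCm38. The alpha globin genes lie on the plus strand of chromosome 11, *Hba-a1* at chr11:32283511-32284465 and *Hba-a2* at chr11:32296489-32297298. The beta globin genes lie on the minus strand of chromosome 7, *Hbb-bs* at chr7:103826534-103827928 and *Hbb-bt* at chr7:103812524-103813996. *Alas2* (chrX:150547375-150570638, plus strand) overlaps *Apex2* and *Mir3620* on the opposite strand, and *Slc4a1* is at chr11:102348824-102365280 on the minus strand. *S100a8* (chr3:90668978-90670035, plus strand) and *S100a9* (chr3:90692632-90695721, minus strand) are neighbours on chromosome 3. *Ngp* (chr9:110419747-110423012, plus strand) and *Camp* (chr9:109847379-109849617, minus strand) are both on chromosome 9. The coordinates are those of the deposited table, and GENCODE release M21 gives the same ones except for 1 end of *Hbb-bs* and of *Slc4a1*. No annotated gene overlaps the members other than *Alas2*, and for that gene the reads of the strands cannot be kept apart here, since the strand setting of the counting is not given.

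The globin genes come in near-identical copies, and this limits what can be read from each copy. The coding sequences of *Hba-a1* and *Hba-a2* are 426 bases long and differ at 1 base (99.8% identity), and those of *Hbb-bs* and *Hbb-bt* are 441 bases long and also differ at 1 base. Counted from the first base of the start codon, the differences are C381T between the alpha genes and C417T between the beta genes, with the base of the first-named gene written first. The sequences below run from base 369 to 393 for the alpha genes and from base 405 to 429 for the beta genes, with the differing base in capitals, and show how little separates the copies within the coding part.
Hba-a1: tgcctctctggaCaaattccttgcc
Hba-a2: tgcctctctggaTaaattccttgcc
Hbb-bs: ggctggagtggcCgctgccctggct
Hbb-bt: ggctggagtggcTgctgccctggct
The longest run shared by the transcripts was 415 bases for the alpha pair and 430 bases for the beta pair. The way the counting split reads between copies is not given, so the level of each copy is uncertain, and the sum over the 4 globins is given beside them. *S100a8* and *S100a9* (53.1% coding identity) and *Ngp* and *Camp* (54.1%) share no run above 10 bases.

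The 100 bases before the RefSeq start of 7 of the members are shown, 5′ to 3′ on the strand of the gene (GRCm38.p6). Capitals mark matches on either strand to the TATA box (TATAA), the CCAAT box, the CACCC box, a GATA motif (AGATAA), a PU.1 core (GGAAGT) or a C/EBP motif (TTGCNNAA). These matches do not overlap each other within the bases shown.
Hba-a1, chr11:32283572-32283671, plus strand: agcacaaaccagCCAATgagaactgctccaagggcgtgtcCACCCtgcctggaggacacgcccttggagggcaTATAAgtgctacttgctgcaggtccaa
Hba-a2, chr11:32296392-32296491, plus strand: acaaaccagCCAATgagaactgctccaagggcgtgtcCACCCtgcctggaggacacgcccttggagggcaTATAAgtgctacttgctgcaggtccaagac
Hbb-bs, chr7:103827929-103828028, minus strand: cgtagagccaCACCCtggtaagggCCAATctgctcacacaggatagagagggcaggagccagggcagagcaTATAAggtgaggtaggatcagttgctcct
Hbb-bt, chr7:103813924-103814023, minus strand: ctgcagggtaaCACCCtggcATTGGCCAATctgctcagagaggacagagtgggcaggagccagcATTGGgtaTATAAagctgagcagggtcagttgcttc
Alas2, chrX:150547317-150547416, plus strand: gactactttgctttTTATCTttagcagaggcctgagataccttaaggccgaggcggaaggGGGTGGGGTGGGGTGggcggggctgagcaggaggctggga
S100a8, chr3:90668971-90669070, plus strand: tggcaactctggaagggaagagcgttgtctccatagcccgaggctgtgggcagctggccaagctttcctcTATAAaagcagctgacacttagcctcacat
S100a9, chr3:90695722-90695821, minus strand: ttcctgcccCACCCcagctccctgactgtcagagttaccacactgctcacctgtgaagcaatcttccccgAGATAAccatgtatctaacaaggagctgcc
Each of the 4 globin windows held a TATA box, a CCAAT box and a CACCC box, letters that 10.2%, 18.9% and 27.2% of all 32851 RefSeq promoter windows of this length hold. Other members held them too: TATAA in *S100a8*, CCAAT in *Ngp*, and CACCC in *Alas2*, *S100a9* and *Camp*. The windows of *Ngp* and *Camp* are not shown. TTGCNNAA was found in the 250 bases before the start of *Hbb-bs*, *S100a9* and *Ngp*, and in 9.56% of all promoters. AGATAA was found in the windows of *Alas2* and *S100a9* and in 3.59% of all windows. GGAAGT was found in the 250 bases before the start of *S100a8* and of *S100a9*, as in 19.7% of all promoters, but not within 100 bases. Between the copies, the 250 bases before the start were 97.6% identical for the alpha pair and 70.9% identical for the beta pair. These matches describe letters and not binding.

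*Hbb-bs* was the highest of the 10 genes by FPKM, a scale that corrects for length. In WT controls 1, 2 and 3 it was at 70.86, 56.32 and 98.99 FPKM, and in WT PTX mice 1, 2 and 3 at 99.85, 32.61 and 30.23 FPKM. In KO controls 1, 2 and 3 it was at 93.61, 25.07 and 35.62 FPKM, and in KO PTX mice 2 and 3 at 25.86 and 46.47 FPKM. One library in each of the WT control, WT PTX and KO control groups was near 100 FPKM, and all groups overlapped except that the KO PTX mice were below all 3 WT controls, as were 11.5% of all tested genes. The means were 75.39 ± 21.69 FPKM in WT controls (SD, n = 3), 54.23 ± 39.53 FPKM in WT PTX mice (SD, n = 3), 51.43 ± 36.91 FPKM in KO controls (SD, n = 3) and 36.16 ± 14.57 FPKM in KO PTX mice (SD, n = 2). Within the WT PTX and KO control groups the highest library was 3.30 and 3.73 times the lowest, against 3.98 times over all 11 libraries. The differences between mice of 1 group thus nearly spanned the whole range.

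The other globins had the same top 3 libraries, WT control 3, WT PTX 1 and KO control 1, in differing order. *Hba-a1* ran from 16.83 FPKM in KO control 2 to 73.85 FPKM in WT control 3, *Hba-a2* from 17.55 to 63.8 FPKM in the same libraries, and *Hbb-bt* from 11.67 FPKM in KO control 2 to 55.28 FPKM in WT control 3. Means over the 11 libraries were 55.95 FPKM for *Hbb-bs*, 41.18 FPKM for *Hba-a1*, 36.01 FPKM for *Hba-a2* and 29.57 FPKM for *Hbb-bt*, each with an SD of 17.11 to 29.98 FPKM, so neighbours in this order do not differ beyond their spread over libraries. Within libraries the order was steadier. *Hbb-bs* was above *Hbb-bt* in all 11 libraries, at 1.73 to 2.35 times its FPKM, while the ratio of *Hba-a1* to *Hba-a2* ran from 0.959 to 1.24. As the split of reads between near-identical copies is not given, a steady ratio of copies cannot be told apart from that split. Together the 4 globins took 0.005717% to 0.02339% of the counts of a library.

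*Alas2* and *Slc4a1* were far lower. *Alas2* was at 0.95, 0.83 and 2.31 FPKM in WT controls 1, 2 and 3, at 1.64, 0.68 and 0.52 FPKM in the WT PTX mice, at 1.86, 0.34 and 0.55 FPKM in KO mice without PTX and at 0.54 and 1.0 FPKM in KO PTX mice 2 and 3. The same libraries were highest as for the globins, WT control 3, KO control 1 and WT PTX 1. *Slc4a1* was at 0.31, 0.45 and 1.21 FPKM in WT controls, at 0.79, 0.26 and 0.24 FPKM in WT PTX mice, at 2.1, 0.37 and 0.29 FPKM in KO controls and at 0.21 and 0.39 FPKM in KO PTX mice. KO control 1 was the highest library for this gene, and it was the highest for none of the globins. Counts behind these values were 70 to 414 for *Alas2* and 61 to 842 for *Slc4a1*, and intervals from such counts would cover counting error only.

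*S100a9* was the highest of the neutrophil genes, with a mean of 14.64 ± 12.62 FPKM over all libraries (SD, n = 11). It was at 14.75, 39.34 and 14.53 FPKM in WT controls 1, 2 and 3, at 25.48, 7.49 and 4.36 FPKM in the WT PTX mice, at 33.4, 8.43 and 3.32 FPKM in KO mice without PTX and at 5.91 and 4.03 FPKM in KO PTX mice 2 and 3. WT control 2, KO control 1 and WT PTX 1 were highest, and the groups overlapped except that the KO PTX mice were below all WT controls, again with 11.5% of all tested genes. *S100a8*, its partner in calprotectin, was at 5.4, 15.83 and 6.4 FPKM in WT controls, at 8.89, 2.44 and 1.82 FPKM in WT PTX mice, at 11.81, 2.49 and 2.01 FPKM in KO controls and at 1.74 and 1.13 FPKM in KO PTX mice. The KO PTX mice had the lowest *S100a8* of all 11 libraries, and the share of all genes for which this holds was not counted. For *S100a9*, *Ngp* and *Camp* the lowest library was KO control 3.

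The granule protein genes gave the same 3 high libraries. *Ngp* ranged from 1.28 FPKM in KO control 3 to 16.76 FPKM in KO control 1, and *Camp* from 0.57 to 6.0 FPKM in the same libraries. The lowest count of any member was 33, for *Camp* in KO PTX 3. From the lowest to the highest library, *S100a8* spanned 14.0-fold, *Ngp* 13.1-fold, *S100a9* 11.9-fold and *Camp* 10.5-fold, wider ranges than the 3.64-fold to 4.74-fold of the globins.

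**Figure D1:**
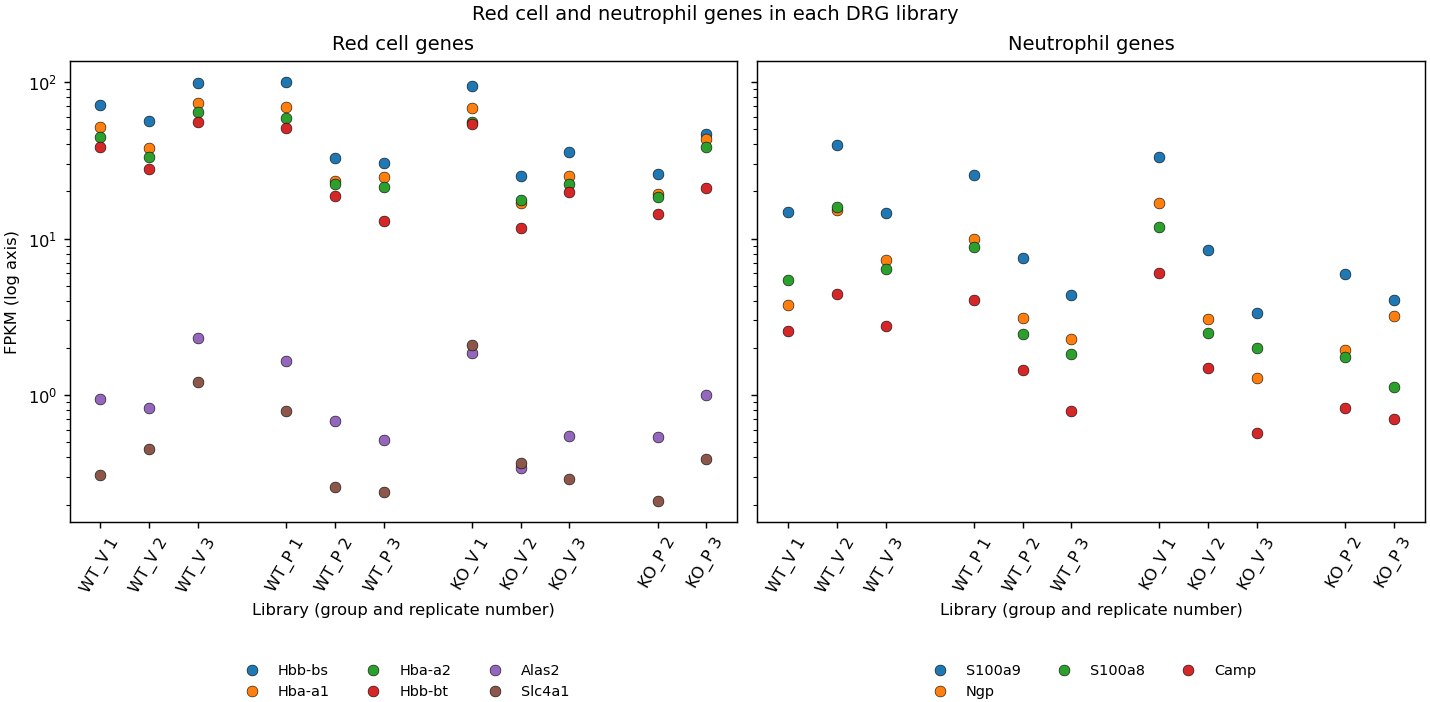
FPKM of the 10 genes on a log axis in each of the 11 libraries, 1 point per gene and library, with red cell genes on the left and neutrophil genes on the right. WT_V and KO_V are controls and WT_P and KO_P are PTX mice; replicate 1 of WT_P and of KO_V is high on both sides, WT_V 3 is high on the left only and WT_V 2 on the right only.

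Ranked from high to low, WT control 3, WT PTX 1 and KO control 1 were the top 3 libraries for all 6 red cell genes. For all 4 neutrophil genes the top 3 libraries were WT control 2, KO control 1 and WT PTX 1. WT PTX 1 and KO control 1 were thus high for both sets, with a mean log2 deviation from the 11-library mean of 0.735 and 0.867 for the red cell genes and of 0.969 and 1.45 for the neutrophil genes. The sets parted in other libraries. WT control 2 had a deviation of 1.47 for the neutrophil genes and 0.0429 for the red cell genes, WT control 3 had 0.461 and 0.891, and KO PTX 3 had -0.922 and 0.00847. The high libraries belong to different groups. Of the 3 libraries high for red cell genes 1, WT control 3, is from a female, and the 3 high for neutrophil genes are all from males.

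The spread within groups was large compared with that of other genes. On log2(FPKM + 1), the pooled SD within groups was 0.466 to 1.12 for the 10 genes, and the median over the 15087 tested genes was 0.123. *S100a9* had the highest SD of the members, 1.12, at rank 58 of all tested genes. *Ngp*, at 1.07, was at rank 64, and *S100a8*, at 0.905, at rank 98. The lowest of the 10, *Slc4a1*, was at percentile 97.39. The pseudocount of 1 lowers this SD for genes near or below 1 FPKM, such as *Slc4a1* and *Alas2*.

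Proportions were closest to fixed among the globins. The ratio of *Hbb-bs* to *Hba-a1*, a beta chain to an alpha chain, was 1.08 to 1.49 over the 11 libraries, and the ratio of *Hbb-bs* to *Alas2* was 42.9 to 74.6. *S100a9* was 1.65 to 3.57 times *S100a8*, and *Ngp* was 1.46 to 4.6 times *Camp*. *S100a9* was 1.25 to 3.91 times *Ngp*. Between the sets, the ratio of *Hbb-bs* to *S100a9* ran from 1.43 in WT control 2 to 11.5 in KO PTX 3, an 8.05-fold range. The ranges within a set were 1.29-fold to 1.74-fold among the globins and *Alas2*, 2.16-fold to 3.15-fold among the neutrophil genes and 5.13-fold for *Hbb-bs* to *Slc4a1*. The lowest, 1.29-fold, is between the copies *Hba-a1* and *Hba-a2*, where the split of reads is not given. *Hbb-bs* to *Hba-a1*, which are not copies of each other, spanned 1.38-fold. *Hbb-bs* was 44.6 times *Slc4a1* in KO control 1 and 229 times in WT control 1, but 119 to 126 times in 7 of the 11 libraries.

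**Figure D2:**
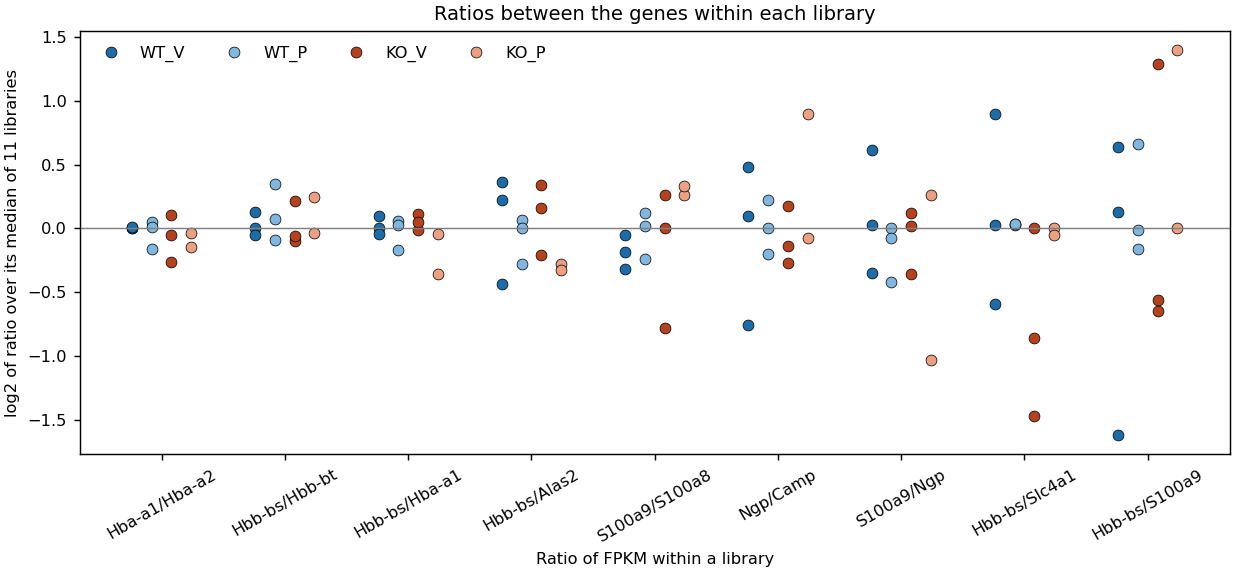
Ratio of 2 genes' FPKM within each library, as the log2 of the ratio over its median of the 11 libraries, 1 point per library, coloured by group. Ratios among globins stay close to the median, and the ratio of *Hbb-bs* to *S100a9* spreads most, from 1.43 to 11.5.

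Across the 11 libraries, *Hbb-bs* and *Alas2* had a Pearson r of 0.935 and a Spearman rho of 0.927 on log2(FPKM + 1) (two-sided permutation tests, p = 6e-05 and p = 0.00012; adjusted over 3 pairs 0.00018 and 0.00036). Without the 2 libraries farthest from the median of *Hbb-bs* r was 0.915, and over deviations from group means it was 0.941. *S100a8* and *Ngp* had r = 0.927 and rho = 0.818 (permutation tests, p = 0.00036 and p = 0.00362, adjusted 0.00054 and 0.00543), with r = 0.845 without 2 libraries and 0.944 within groups. Between the sets, *Hbb-bs* and *S100a8* had r = 0.756 and rho = 0.645 (permutation tests, p = 0.0115 and p = 0.0369, adjusted 0.0115 and 0.0369). That r was 0.737 without 2 libraries and 0.67 within groups, while rho was 0.517 without them. Over all pairs of members, r was 0.748 to 0.997 within the 15 red cell pairs, 0.927 to 0.984 within the 6 neutrophil pairs and 0.598 to 0.789 in the 24 pairs between sets. The 0.997 is of the near-identical copies *Hba-a1* and *Hba-a2*, and *Hba-a1* with *Hbb-bs* had 0.985. The genes of a pair were measured in the same libraries, so they share depth and scaling.

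**Figure D3:**
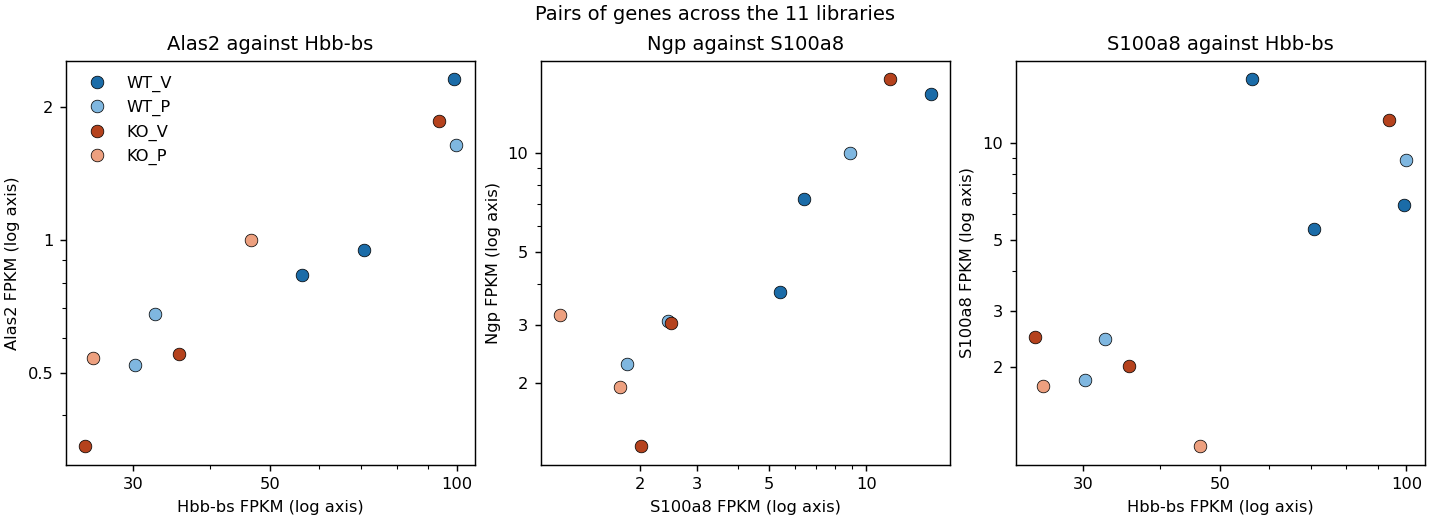
FPKM of 3 pairs of genes on log axes, 1 point per library, coloured by group. *Alas2* climbs with *Hbb-bs* (r = 0.935) and *Ngp* with *S100a8* (r = 0.927), while *S100a8* against *Hbb-bs* is looser (r = 0.756), with WT_V 2 high at the top and KO_P 3 low.

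Among tested genes outside the 10, those most like *Hbb-bs* over the 11 libraries by Pearson r on log2(FPKM + 1) were *Ppbp*, a platelet chemokine (r = 0.894), *Aldh1a2*, which makes retinoic acid (0.884), *Lamc3*, a laminin chain (0.882), *Arhgdib* (0.86), and *Tent5c* (0.853). Those most like *S100a8* were *Ltf*, the granule protein lactoferrin (0.967), *Chil3*, a chitinase-like protein of myeloid cells (0.961), *Trp53i11* (0.923), *Fzd8*, a Wnt receptor (0.891), and *Ppbp* again (0.888). *Ltf* ranged from 0.31 FPKM in WT PTX 3 to 4.1 FPKM in WT control 2 and *Chil3* from 0.34 FPKM in KO PTX 3 to 4.24 FPKM in WT control 2. *Ppbp*, low at a mean of 0.556 FPKM, was highest in KO control 1, WT PTX 1 and WT control 3, the libraries high for red cell genes. These values rank likeness among 15087 genes and carry no test.

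The first comparison asks whether the genes differed between PTX and control DRGs in WT mice. Every one of the 10 had a lower fitted level after PTX, and none passed the threshold (0 of 10 at an adjusted p of 0.05, where 1 of 15087 genes, or 0.00663%, passed). The count at an unadjusted p under 0.05 was also 0, and DESeq2 and limma called 0 of the 10. The median log2 fold change was -0.50 for the red cell genes and -0.99 for the neutrophil genes, beside -0.006 over all tested genes, of which 51.2% were negative. *Hbb-bs* had a log2 fold change of -0.51 (SE 0.57, adjusted p = 0.70 from edgeR, quasi-likelihood, Benjamini-Hochberg over all tested genes). *S100a8* was at 9.21 ± 5.76 FPKM in controls and 4.38 ± 3.92 FPKM after PTX (SD, n = 3 each), with a log2 fold change of -1.21 (SE 0.64, adjusted p = 0.424 from edgeR), the lowest adjusted p of the 10. For *S100a9* it was -1.06 (SE 0.64) and for *Slc4a1* -0.60 (SE 0.85). The FPKM of the groups overlapped in all 10 genes.

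These values changed with single libraries. Without WT PTX 1, the log2 fold change of *Hbb-bs* was -1.27 (adjusted p = 0.685 from edgeR) and that of *S100a8* was -1.92 (adjusted p = 0.685). In that fit 5 of the 10 genes had an unadjusted p under 0.05, as did 7.21% of all tested genes. WT PTX 1 was among the 3 highest libraries for all 10 genes, so leaving it out lowers the PTX level of each. The 10 genes also vary together, so the 5 are not separate results. Without WT control 3, *Hbb-bs* was at -0.15, and *Alas2* and *Slc4a1* turned to 0.19 and 0.38. Without WT control 1, the library that stands apart, the median was -0.64 for the red cell genes and -1.42 for the neutrophil genes, and 1 of the 10 had an unadjusted p under 0.05 (10.1% of all tested genes).

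In KO mice, all 10 genes again had a lower fitted level after PTX and 0 of 10 passed (0.00663% of all tested genes did, 1 of 15087). At an unadjusted p under 0.05 the count was 0, and DESeq2 and limma called 0. The median log2 fold change was -0.37 for the red cell genes and -1.14 for the neutrophil genes, beside -0.009 over all genes. *S100a8* was at 5.44 ± 5.53 FPKM in KO controls (SD, n = 3) and at 1.74 and 1.13 FPKM after PTX, a log2 fold change of -1.53 (SE 0.78, adjusted p = 0.999 from edgeR). It was the only one of the 10 whose groups did not overlap, and 10.4% of all tested genes were lower without overlap in this comparison of 2 against 3 mice. *Slc4a1* had the largest fitted difference, -1.60 (SE 1.02, adjusted p = 0.999), and *Hba-a2* the smallest, -0.16 (SE 0.61). Without KO control 1, *S100a8* was at -0.67 and 4 of the 10 genes were negative. Over all libraries left out in turn, *Slc4a1* ran from -2.40 to -0.23.

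The 2 KO PTX libraries are the only KO ones with fewer than 60000000 counts in all, so depth and PTX cannot be told apart within the KO mice. With libraries under 60000000 as a covariate, which rests on the WT mice, 4 of the 10 genes were negative for PTX in KO. Among the WT libraries under that total, WT control 1 had 70.86 FPKM and WT PTX 3 had 30.23 FPKM of *Hbb-bs*, and among those above it the means were 77.66 and 66.23 FPKM (n = 2 each). For *S100a8* the values under that total were 5.4 and 1.82 FPKM, and the means above it 11.12 and 5.67 FPKM.

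Over both genotypes, 5 PTX mice were compared with 6 controls. All 10 genes were negative, from -1.37 to -0.32 on the log2 scale, and 0 of 10 passed (0.0133% of all tested genes passed, 2 of 15087). *S100a8* had a log2 fold change of -1.37 (SE 0.50, adjusted p = 0.463 from edgeR), and it was the only gene of the 10 with an unadjusted p under 0.05, at 0.0208 (9.36% of all tested genes were under 0.05). DESeq2 and limma also called 0, with 2 and 1 genes at an unadjusted p under 0.05. *Camp* was at -1.06 (SE 0.50, adjusted p = 0.54) and *S100a9* at -1.03 (SE 0.49, adjusted p = 0.548), while *Hbb-bs* was at -0.48 (SE 0.42, adjusted p = 0.711). Without KO control 1, *Hbb-bs* was at -0.095 and *S100a8* at -0.917, the red cell median was -0.031 and 7 of the 10 genes were negative. Over PTX and control mice, the median of *S100a8* was 1.82 and 5.9 FPKM, with ranges of 1.13 to 8.89 and 2.01 to 15.83 FPKM that overlapped. Over all settings, adjusted p for these genes ran from 0.312 to 1.

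**Figure D4:**
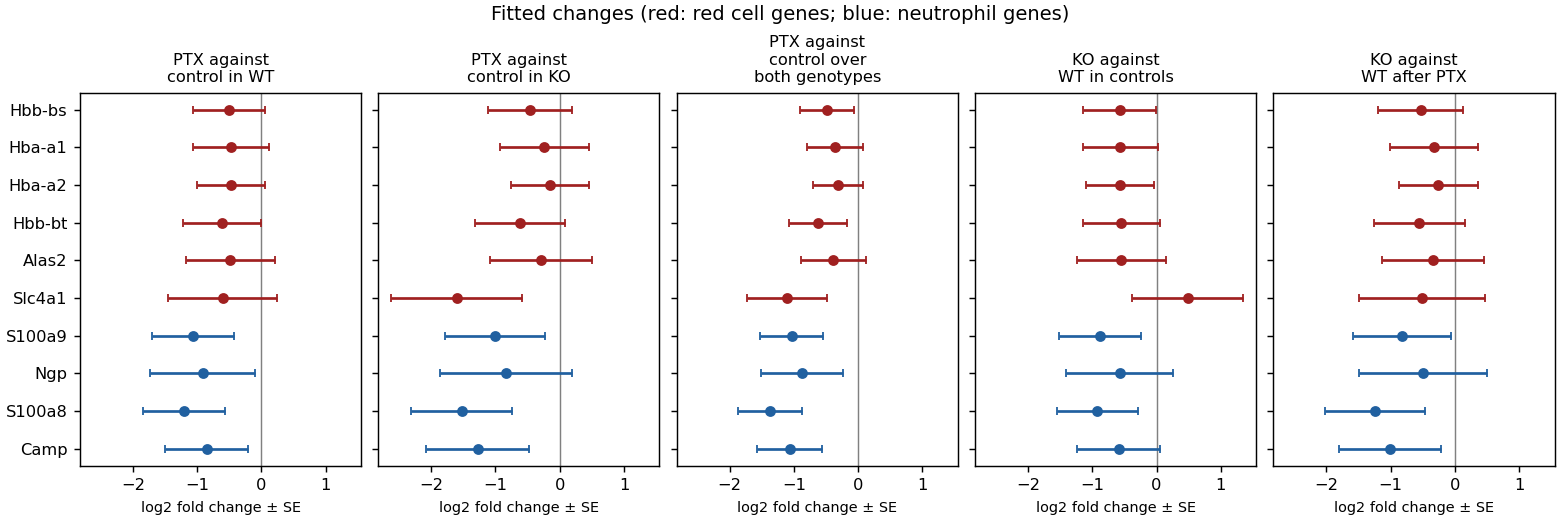
Fitted log2 fold change of each gene with its SE in 5 comparisons, red cell genes in red and neutrophil genes in blue, with 0 as a grey line. All points but *Slc4a1* of KO against WT in controls (0.48) lie below 0, and none passed the threshold.

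Between KO and WT controls, 9 of the 10 genes had a lower fitted level in KO mice and 0 of 10 passed (0.00663% of all tested genes passed, 1 of 15087, with 0 of the 10 at an unadjusted p under 0.05 and 0 called by DESeq2 and limma). The median was -0.55 for the red cell genes and -0.73 for the neutrophil genes, beside 0.003 over all genes. *Hbb-bs* had a log2 fold change of -0.58 (SE 0.56, adjusted p = 0.782 from edgeR) and *S100a8* one of -0.92 (SE 0.63, adjusted p = 0.71). *Slc4a1* was the exception at 0.48 (SE 0.87, adjusted p = 0.881), and without KO control 1, where it was at 2.1 FPKM, it was at -0.91. Without WT control 1 it was at -0.04, *S100a8* was at -1.315 and the median of the neutrophil genes was -1.19. Without KO control 1 9 of the 10 genes had an unadjusted p under 0.05 (3.7% of all tested genes did), and the lowest adjusted p was 0.941. That library was among the 3 highest for all 10 genes, so leaving it out lowers the KO control level of each. The 10 genes also vary together over libraries, so this is not a count of separate results. These controls are shared with the PTX comparisons, so the signs are not independent of those above.

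Between KO and WT mice after PTX, all 10 genes were negative, 0 of 10 passed (0.0133% of all tested genes passed, 2 of 15087) and 0 had an unadjusted p under 0.05, with 0 called by DESeq2 and limma. The median was -0.43 for the red cell genes and -0.92 for the neutrophil genes. *S100a8* had a log2 fold change of -1.24 (SE 0.78, adjusted p = 0.993 from edgeR), and its groups did not overlap, which held in this direction for 9.58% of all tested genes. The signs rested on single libraries. Without WT PTX 1, 3 of the 10 genes were negative and *S100a8* was at -0.57, and without KO PTX 2, 4 were negative.

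Whether the PTX effect differed between genotypes was tested as an interaction. Of the 10 genes 6 were positive and 4 negative, with 0 called by edgeR (0.00663% of all tested genes passed, 1 of 15087), 0 at an unadjusted p under 0.05, and 0 called by DESeq2 and limma. The difference was 0.045 for *Hbb-bs* (SE 0.89, adjusted p = 0.993 from edgeR) and -0.32 for *S100a8* (SE 0.99, adjusted p = 0.944). The SE of this difference was 0.82 to 1.39 on the log2 scale over the 10 genes, wider than in the other comparisons. Without KO control 1 none of the 10 was negative and without KO PTX 3 all 10 were. Without WT control 1, *S100a8* was at 0.125.

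Sex was a term of the fit. Over the 4 female and 7 male libraries, *Hbb-bs* had a median of 41.05 and 56.32 FPKM, with ranges of 30.23 to 98.99 and 25.07 to 99.85 FPKM. *S100a8* had medians of 1.92 and 5.4 FPKM, with ranges of 1.13 to 6.4 and 1.74 to 15.83 FPKM. These ranges overlapped, and no test of sex was made. Female and male medians were 4.195 and 14.75 FPKM for *S100a9*, 2.75 and 3.77 FPKM for *Ngp* and 0.745 and 2.58 FPKM for *Camp*. Without the sex term, the median log2 fold change of the neutrophil genes moved from -1.14 to -1.69 for PTX in KO. For PTX in WT it moved from -0.99 to -0.83, and for the genotype difference from -0.13 to -0.77.

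Other genes of the red cell and the neutrophil were read from lists. Of 16 genes of the red cell membrane and skeleton, 7 were tested, led by *Tmod1* (59.42 FPKM) and *Dmtn* (27.89 FPKM). Their summed level was 144.2 to 164.4 FPKM, a 1.14-fold range, and had an r of -0.068 with *Hbb-bs*. Of 14 genes of heme synthesis and iron uptake, all were tested, led by *Tfrc*, the transferrin receptor (19.2 FPKM), and *Urod* (18.53 FPKM), with a 1.13-fold range of the sum. The reticulocyte enzymes, 7 tested of 10 and led by *Ube2o* and *Car2*, had a 1.15-fold range. The list of erythroid transcription factors and the erythropoietin receptor *Epor*, 8 genes with 2 tested and led by *Lmo2* and *Zfpm1*, had a 1.27-fold range. Many genes of these lists are also used by cells of the nervous system. The sums of the last 3 lists had an r of 0.142 to 0.479 with *Hbb-bs*. With *S100a8* the r was 0.732 for heme synthesis and iron uptake, 0.173 for the erythroid list and -0.023 for the reticulocyte enzymes. These r values carry no test. Of the 8 genes of the erythroid list, 6 were below 1 FPKM in every library. Among them are genes more particular to red cell precursors, named after their values were seen. *Gata1* had at most 0.23 FPKM, *Klf1* 0.18 FPKM and *Epor* 0.35 FPKM, where the member *Slc4a1* had a median of 0.37 FPKM. Whether red cell precursors were present was not tested. Of other globins *Hbq1b* was tested, at 1.84 to 3.62 FPKM (r = 0.006 with *Hbb-bs*), and *Hbb-y*, *Hbb-bh1*, *Hbb-bh2* and *Ahsp* were not analysed here.

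Of 16 genes of neutrophil granules, 7 were tested, led by *Lyz2*, a lysozyme that macrophages also make (31.64 FPKM), and *Retnlg* (1.92 FPKM). The summed level of that list was 24.31 to 62.12 FPKM, highest in WT control 2, with an r of 0.929 with *S100a8* and 0.715 with *Hbb-bs*. Of the 16 granule genes, 9 were below 1 FPKM in every library. *Mpo* and *Elane*, genes for the first granules to be made, were among them and were named after their values were seen. *Mpo* had at most 0.88 FPKM and *Elane* at most 0.52 FPKM, both in KO control 1, the library with the highest *Ngp* and *Camp*. Whether neutrophil precursors were present was not tested. Of 14 genes of the neutrophil surface and chemotaxis, 3 were tested, led by *Mmp25* and *Itgb2*, with an r of 0.467 between the list's sum and *S100a8* and of 0.163 with *Hbb-bs*. *Ly6g*, the surface marker of mouse neutrophils and also named after its values were seen, had at most 0.84 FPKM, in WT control 2. Of 10 neutrophil cytosolic proteins, 3 were tested, led by *Anxa1*, the protein annexin A1 (3.91 FPKM), with an r of 0.931 between the list's sum and *S100a8*. *Stfa1*, *Stfa2*, *Stfa3* and BC100530 were not analysed here.

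For PTX in WT, all 7 granule genes and all 3 cytosolic genes tested were negative, with medians of -1.002 and -0.942 on the log2 scale, and edgeR called 0 of them (2 and 2 at an unadjusted p under 0.05, where 13.5% of all tested genes were). Of the 3 surface genes, 2 were negative, with a median of -0.511. For PTX in KO the lists were mixed: 5 of 7 granule genes (median -0.375), 1 of 3 cytosolic genes (0.392) and 1 of 3 surface genes (0.05) were negative. In WT, DESeq2 called *Lcn2* and *Lyz2* of the granule list and *Anxa1* (2.05% of all tested genes were called), and limma called 0. For PTX in KO, DESeq2 called *Anxa1* of these lists (28 of 15087 genes were called). Over both genotypes it called *Lyz2* and *Anxa1* (125 of 15087), and limma called 0 in each. *Lyz2* was at 40.81, 39.15 and 33.79 FPKM in WT controls 1, 2 and 3 and at 32.12, 30.47 and 21.33 FPKM in the WT PTX mice, so these groups did not overlap, and 7.37% of all tested genes were lower without overlap. All 10 genes of the macrophage list were also negative for PTX in WT, with a median of -0.58. Of these, edgeR called 0 (8 at an unadjusted p under 0.05) and DESeq2 5, beside the shares of all genes given above for WT. For PTX in KO, 8 of the 10 were negative (median -0.203). Its summed level was 37.31 to 47.87 FPKM in WT controls, 26.37 to 31.45 FPKM in WT PTX mice, 33.26 to 36.12 FPKM in KO controls and 28.56 and 33.92 FPKM in KO PTX mice, with none of its genes at 0. The part of macrophages in the values of *S100a8* and *Lyz2* was not tested.

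Over the 20 lists other than the 10 genes, platelets and megakaryocytes were closest to the globins, with an r of 0.858 with *Hbb-bs* and 0.798 with *S100a8*. Their 12 genes, 3 of them tested and led by *Pf4* and *Itga2b*, summed to 3.07 FPKM in WT PTX 3 and 6.92 FPKM in KO control 1. The list holds *Ppbp*, already named as the gene outside the 10 most like *Hbb-bs* (r = 0.894), so the r of the list is not a separate result. Next with *Hbb-bs* came the neutrophil granule (0.715) and cytosolic (0.662) lists, then bone and cartilage (0.575, and 0.111 with *S100a8*). Schwann cells had 0.453. The lists of endothelium (0.046), T cells (0.086), spinal cord glia (0.092), skeletal muscle (0.237) and B lineage (0.423) had lower r with *Hbb-bs*. The part of bone or cartilage in the values of the 10 genes was not tested. Skeletal muscle, which can come with the tissue, summed to 4.02 FPKM in WT PTX 3 and 700.4 FPKM in KO control 2, a 174-fold range, and KO control 2 had the lowest globins of all libraries. All 10 muscle genes tested were negative for PTX in WT (median -2.794), in KO (-1.609) and over both genotypes (-2.164). By edgeR 1, 1 and 7 of them had an unadjusted p under 0.05, beside 13.5%, 4.32% and 9.36% of all tested genes. With DESeq2 these counts were 8, 1 and 10, and both tools called 0. The muscle sum was 18.23 to 650.7 FPKM in WT controls and 4.02 to 215 FPKM in WT PTX mice, so these groups overlapped. The 3 platelet genes tested were also negative in these comparisons (medians of -0.479, -0.26 and -0.361). The part of muscle or platelets in the values of the 10 genes was not tested. With 11 points that share library and depth these values are descriptions.

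**Figure D5:**
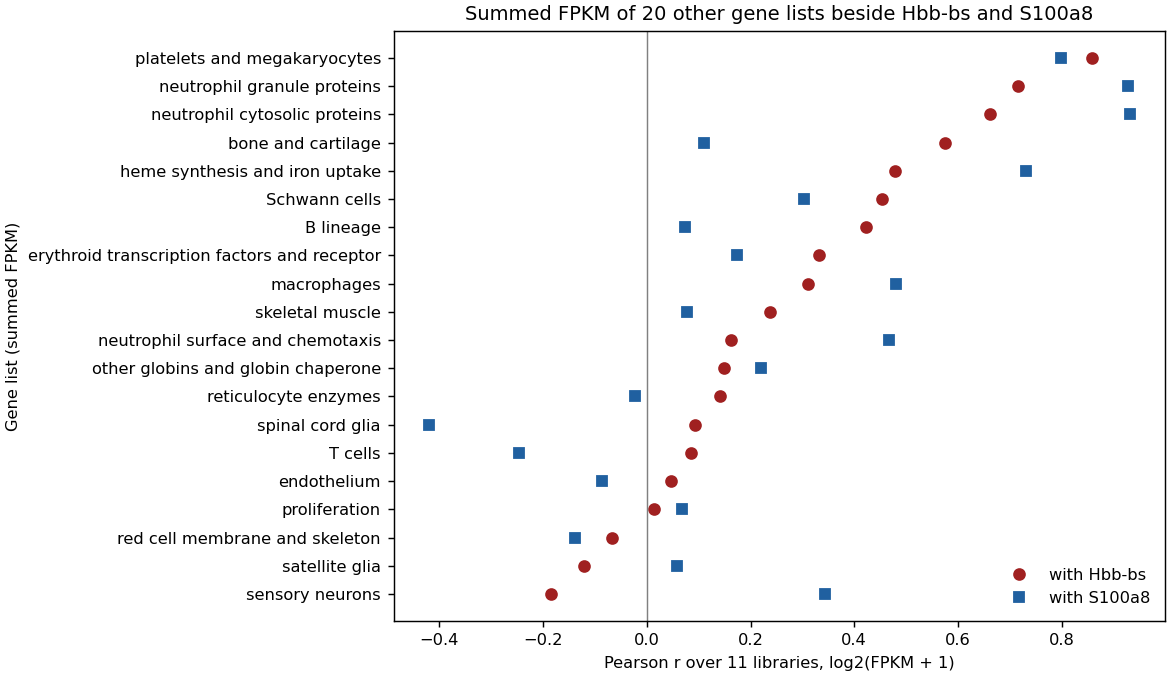
Pearson r over the 11 libraries between the summed FPKM of each of 20 gene lists and *Hbb-bs* (red circles) or *S100a8* (blue squares), on log2(FPKM + 1). Platelets (0.858) are highest for *Hbb-bs*, the lists of neutrophil cytosolic (0.931) and granule proteins (0.929) for *S100a8*, and endothelium is near 0 for both.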

How the data were processed

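RNA was measured in DRGs of 11 mice from poly(A) libraries of a strand-specific kit. Per the labels, total RNA was taken with a Qiagen kit, and the submitters' processing notes list cutadapt, FastQC, HISAT2 and StringTie with the mm10 build, without versions or roles. The authors deposited 1 table with FPKM, scaled by them for gene length and library size, and estimated counts without normalization. Groups and replicate numbers came from the sample descriptions; the titles number the KO PTX mice differently.

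The 10 genes and all lists were chosen with earlier results of these data known. Estimated counts were rounded and tested with edgeR 4.0.16 in R 4.3.3 (TMM, quasi-likelihood test, group and sex as terms, all 11 libraries in one fit, mean FPKM of at least 0.5, Benjamini-Hochberg adjustment over 15087 genes, threshold 0.05). The SE was taken as the size of the log2 fold change over the root of F. A model of the study for these data is not given in the sources used here. Nothing says more of the replicates than 1 library per mouse. Named genes were the 10 members, genes past the threshold and the 2 highest genes of each list, and the 5 genes most like *Hbb-bs* and *S100a8*; others are said to be named after their values were seen. Correlations used 100000 resamples and a pseudocount of 1. Deviations from group means had a mean r of 0.078 over 15 same-numbered pairs (from -0.153 to 0.255). Over 30 differently numbered pairs it was -0.039 (from -0.255 to 0.16). The labels give no pairing by number, so the numbers were not used as pairs in the main fit. Alternatives were DESeq2 1.42.0, limma 3.58.1 on log2(FPKM + 1) and log2(FPKM + 0.1), other size factors, no filter, no sex term, a replicate block, only the groups compared, each library left out, and, added after seeing the data, library totals under 60000000 as a covariate. Sequences were read from RefSeq promoters (9 of 10 members matched, GRCm38.p6) and GENCODE M21 transcripts, and aligned with Biopython 1.88. Other tools were Python 3.11.15, pandas 2.3.3, scipy 1.17.1 and matplotlib 3.10.9.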

Additional observations from a re-analysis of the deposited data

How the results depend on the processing

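None of the 10 genes passed the threshold under any of the 20 other settings, and adjusted p ran from 0.312 to 1. The count of all genes called moved more. With DESeq2, the number called was 309 for WT PTX against control, 28 for KO PTX against control, 125 for PTX over both genotypes, 42 for KO against WT in controls, 9 for KO against WT after PTX and 12 for the genotype difference. Without the FPKM filter, the number called was 2 for WT PTX against control. Without the sex term, the number called was 0 for WT PTX against control (1802 at an unadjusted p under 0.05) and 1 for PTX over both genotypes. With only the groups compared, the number called was 5 for WT PTX against control, 4 for KO PTX against control and 5 for KO against WT after PTX. With limma on log2(FPKM + 1), the number called was 0 for WT PTX against control (1861 at an unadjusted p under 0.05) and 0 for PTX over both genotypes (1352). With limma on log2(FPKM + 0.1), the number called was 0 for WT PTX against control (1858 at an unadjusted p under 0.05) and 1 for PTX over both genotypes. With the library total covariate, the number called was 2 for KO PTX against control, 4 for PTX over both genotypes and 2 for the genotype difference. With each library left out in turn, it was 0 to 30 for WT PTX against control, 1 to 7 for KO PTX against control, 1 to 18 for PTX over both genotypes, 1 to 4 for KO against WT in controls, 2 to 7 for KO against WT after PTX and 1 to 6 for the genotype difference. The block changed no count of genes called and no call of the 10. Whether the numbers pair the mice is not given. The sign of some log2 fold changes turned. For the genotype difference turns were followed for *Hbb-bs* and *S100a8* alone; of all 10 genes 4 were negative there, and 0 with the block or the library total covariate. With the replicate number as a block, for KO PTX against control *Hba-a1* was at 0.283, *Hba-a2* at 0.264, *Hbb-bs* at 0.034 and *Alas2* at 0.34, for KO against WT in controls *Slc4a1* was at -0.073, for KO against WT after PTX *Hba-a1* was at 0.133, *Hba-a2* at 0.136, *Alas2* at 0.109 and *Slc4a1* at 0.039 and for the genotype difference *S100a8* was at 0.506. With the library total covariate, for KO PTX against control *Hba-a1* was at 0.229, *Hba-a2* at 0.311, *Hbb-bs* at 0.094, *Hbb-bt* at 0.061, *Alas2* at 0.588 and *Ngp* at 0.265, for PTX over both genotypes *Alas2* was at 0.023, for KO against WT after PTX *Hba-a1* was at 0.027, *Hba-a2* at 0.1, *Alas2* at 0.325, *Slc4a1* at 0.361 and *Ngp* at 0.258 and for the genotype difference *S100a8* was at 0.495. With limma on log2(FPKM + 0.1), for KO PTX against control *Alas2* was at 0.005. Without the sex term, for the genotype difference *Hbb-bs* was at -0.029. With limma on log2(FPKM + 1), for the genotype difference *S100a8* was at 0.065. Leaving out single libraries, the range for WT PTX against control was -1.129 to 0.193 for *Alas2* and -1.333 to 0.384 for *Slc4a1*. For KO PTX against control it was -0.99 to 0.546 for *Hba-a1*, -0.842 to 0.49 for *Hba-a2*, -1.084 to 0.241 for *Hbb-bs*, -1.106 to 0.169 for *Hbb-bt*, -0.8 to 0.771 for *Alas2* and -2.012 to 0.448 for *Ngp*. For PTX over both genotypes it was -0.783 to 0.073 for *Hba-a1*, -0.694 to 0.033 for *Hba-a2* and -0.753 to 0.212 for *Alas2*. For KO against WT in controls it was -1.641 to 0.142 for *Alas2*, -0.913 to 1.381 for *Slc4a1* and -1.977 to 0.043 for *Ngp*. For KO against WT after PTX it was -1.075 to 0.373 for *Hba-a1*, -0.934 to 0.398 for *Hba-a2*, -1.143 to 0.177 for *Hbb-bs*, -1.072 to 0.156 for *Hbb-bt*, -0.858 to 0.279 for *Alas2*, -1.105 to 0.199 for *Slc4a1* and -1.736 to 0.488 for *Ngp*. For the genotype difference it was -0.507 to 0.717 for *Hbb-bs* and -0.704 to 0.486 for *S100a8*. The cause of these turns was not tested. The values rest on 2 or 3 mice a group, and counts as low as 33 limit *Camp*.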
